A study of Mus musculus with 6 samples.

Results

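The complement genes of the cornea were examined in mice with experimental dry eye: 33 genes of complement components, receptors and regulators were listed by name and matched to the gene symbols of the expression table. Of these, 31 had a row among 17794 genes, and C1s and C4a had none. RNA was sequenced from whole corneas, which hold epithelium, stroma, endothelium, vessels at the rim and leukocytes together. Both groups had been exposed to benzalkonium chloride (BAC), a detergent used as an eye-drop preservative and, here, to induce dry eye. One group then received vehicle and the other luteolin, a plant flavone, for 10 days, with 3 libraries each. The luteolin group was taken from the sample titles and the study's title; its treatment label also carries the word control, and what that word means there is not explained. The sources used here give no dose, route, strain, sex or age. Nothing in the labels ties a library to an animal of its own, so each p-value reflects the spread among 6 samples, and that spread may be technical only. Corneas without BAC were not analysed here, so no value below shows what the damage itself did.

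Complement is a chain of secreted proteins that tags and lyses microbes and draws leukocytes to damaged tissue. C1q binding starts the classical pathway, collectins start the lectin pathway, and factors B, D and properdin run the alternative pathway. All of them converge on the cleavage of C3, whose fragments and those of C5 act on receptors of myeloid cells, while regulators on host membranes and in tissue fluid stop the chain on self surfaces. In the cornea, keratocytes, epithelial cells and macrophages are known to make complement proteins locally.

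Library totals ran from 16084855 to 16469699 estimated counts. Of 13838 genes that passed the filter on low counts, 58.9% had a Benjamini-Hochberg adjusted p under 0.05 in edgeR's quasi-likelihood test, 30.4% lower and 28.5% higher with luteolin, with a median log2 fold change of -0.02. Lower genes made up 51.6% of the calls with TMM factors, 61.9% with upper quartile factors, 63.6% with library sizes only and 65.1% to 65.3% with limma-trend on FPKM, and library sizes only moved the median of all genes to -0.13. All 10 corneal epithelium markers were higher with luteolin, with summed levels of 40238 to 46727 TPM against 69042 to 71381 TPM, Pax6 and Klf5 with the smallest p. All 3 tested conjunctiva markers fell without overlap (4197 to 4438 TPM against 1845 to 2776 TPM), Krt4 by 1.28 and Krt13 by 0.78 on the log2 scale. All 4 tested mast cell markers fell too (summing to 21.5 to 27.5 TPM with vehicle and less in every luteolin library, down to 5.74 TPM), Tpsb2 by 1.64 and Cma1 by 1.85. Of these, Cma1 passed the filter through the vehicle group alone. None of 9 tested skeletal muscle markers passed, Ckm and Myh1 included, and their sum was high in vehicle 1 (189 TPM), vehicle 2 (295 TPM) and luteolin 3 (161 TPM) and 50.6 to 57.0 TPM in the other libraries. Most of the sum in those other libraries was Tnni2, which stood at 47.0 to 64.3 TPM in all libraries. The part of these tissues in the results was not tested. Keratocyte markers were highest in vehicle 2 (summed level 6055 TPM, and 1819 to 2818 in the other vehicle libraries, against 1273 to 2741 with luteolin), and 5 of 10 fell, Cd34 by 2.08 and Thy1 by 2.06.

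Most listed complement genes that could be tested were lower after luteolin. Clusterin was not, and of the 4 listed regulators on host membranes 0 were lower and 1 was higher. Over all tested genes 30.4% were lower and 28.5% higher, and 4 genes are too few to be set apart from those shares. Of the 25 listed genes tested, 17 were lower (background 30.4%), 1 was higher (background 28.5%) and 7 did not pass. All 17 lower genes differed by over 1 on the log2 scale, as did 15.1% of all tested genes. For 17 genes every luteolin library was below every vehicle library (33.7% of all tested genes), and for 2 it was above (33.8%). The median log2 fold change was -1.78. Hc, C7 and C5ar1 passed the filter of 0.619 CPM in 3 libraries through the vehicle group alone, and 6 genes were too low to test. In whole tissue, fewer cells of a type and less RNA per cell cannot be told apart.

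**Figure D1:**
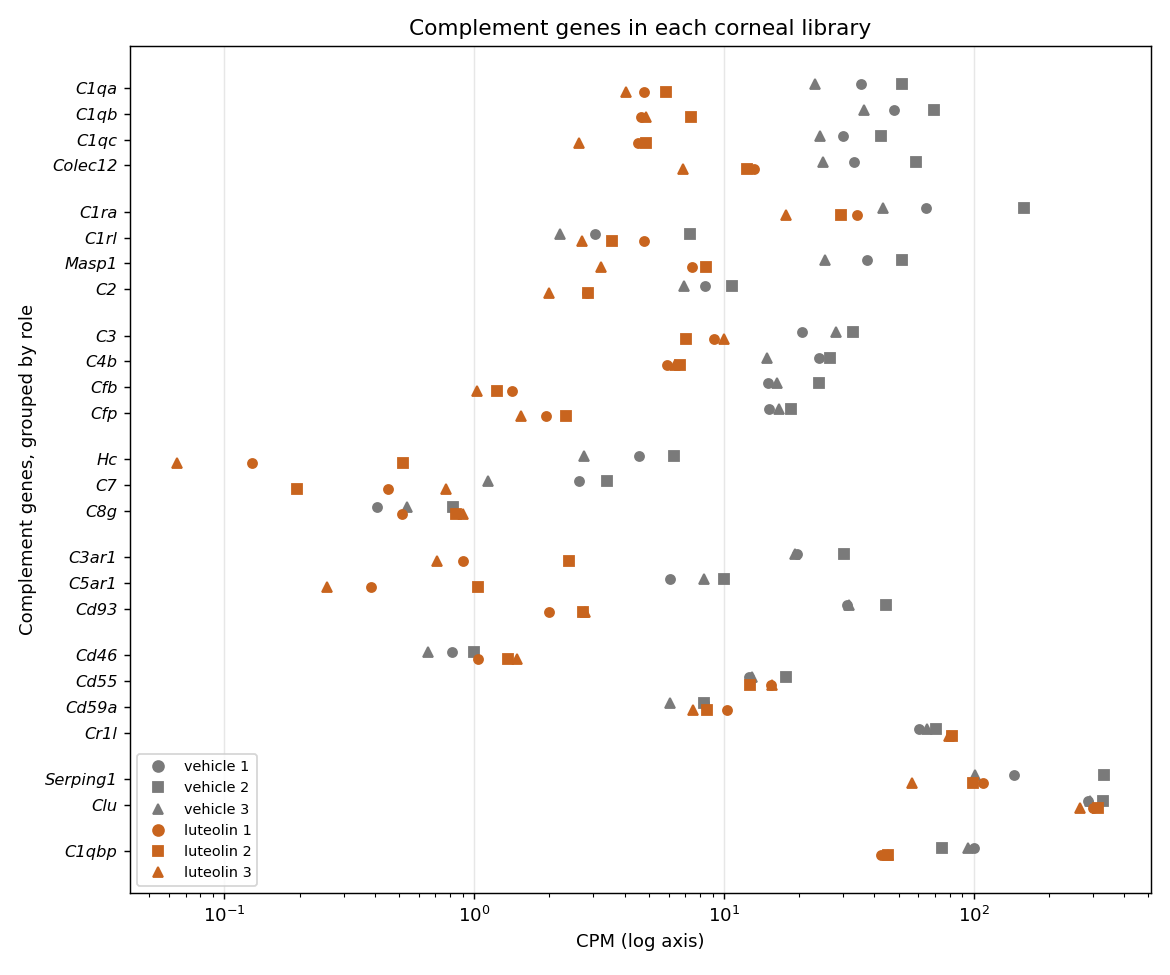
Each point is 1 library: the horizontal log axis gives CPM (counts scaled to library size), rows are the 25 tested complement genes ordered by role, grey is vehicle and orange luteolin. The orange points lie left of the grey for C1qa to Colec12, C2 to C7 and the 3 receptors, and mix with them for Cd55, Cd59a and Clu.

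The 3 chains of C1q, the recognition molecule of the classical pathway, fell together. C1qa (gene ID 12259) stood at 35.5, 51.8 and 23.2 CPM with vehicle and at 4.77, 5.85 and 4.05 CPM with luteolin. C1qb (gene ID 12260) stood at 47.8, 69.4 and 36.4 against 4.64, 7.41 and 4.89 CPM, and C1qc (gene ID 12262) at 29.9, 42.6 and 24.3 against 4.51, 4.87 and 2.64 CPM. In each of the 3 genes vehicle 2 was the highest of the 6 libraries, and the groups did not overlap. The log2 fold changes were -2.91 (SE 0.312) for C1qa, -3.18 (SE 0.286) for C1qb and -3.01 (SE 0.284) for C1qc, with edgeR adjusted p of 0.000301, 0.000157 and 0.000186. The chains are made in equal numbers in the finished protein and their genes are neighbours in the RefSeq annotation, with 0 protein-coding genes between them. Per length, C1qb was 1.38 ± 0.128 times C1qa with vehicle and 1.12 ± 0.151 times with luteolin, and C1qc was 0.937 ± 0.130 and 0.839 ± 0.154 times C1qa (SD, n = 3). The first ratio did not overlap between groups and the second did.

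The promoter of C1qb is shown because the 3 chains moved together. It is the RefSeq window of the 250 bases before the gene's start, on the minus strand at chr4:136886201-136886450 of GRCm38.p6, a later build than the one named for the counts. Capitals mark matches to a loose form of the site bound by NF-kappaB, GGG followed after 5 bases of any kind by CC, read on both strands.
C1qb: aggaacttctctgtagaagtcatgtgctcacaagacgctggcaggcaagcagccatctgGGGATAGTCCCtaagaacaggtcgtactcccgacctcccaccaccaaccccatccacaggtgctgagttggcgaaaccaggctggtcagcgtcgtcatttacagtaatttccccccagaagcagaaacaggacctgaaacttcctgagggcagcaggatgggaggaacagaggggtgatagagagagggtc
The match lies 191 bases before the start and is read on both strands with a shift of 1 base. This motif is common: 45.8% of all 32851 windows in the table hold it. Of the 21 listed genes with a window, 11 hold it, 6 of 10 among the lower genes and 4 of 6 among the other tested genes. Here and for the motifs below, a gene was counted if any of its windows held the motif. The shares of all windows are over single windows, of which 27025 genes have 32851, so the units are not alike. The interferon response form (GAAA repeated after 2 bases of any kind), TTCNNNGAA (gamma-activated site), TTGCNNAA (C/EBP) and GAGGAAG (PU.1) were found in 2, 3, 2 and 1 of the 21, where 2.98%, 7.02%, 9.56% and 10.6% of all windows hold them.

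C1q in tissue is made mainly by macrophages, and their markers moved in the same libraries. Of 13 macrophage markers chosen without complement genes, 11 fell, with summed levels of 548 to 1111 TPM with vehicle and 76.8 to 113 TPM with luteolin, and none was at 0. Mrc1, the mannose receptor, had a fitted log2 change of -3.40 and Msr1, a scavenger receptor, of -4.92. In 4 of the 13 markers, Msr1 among them, the filter was passed through the vehicle group alone. Set against Csf1r, the receptor that keeps macrophages alive, the summed C1q chains were at 16.8, 13.9 and 14.1 times its TPM with vehicle and 13.4, 11.9 and 15.2 times with luteolin, and the groups overlapped. Against Mrc1 they overlapped too, at 20.2 to 33.8 and 27.3 to 35.0 times. Against Lyz2, a lysozyme of myeloid cells, the ratio was 0.432 ± 0.0722 with vehicle and 0.866 ± 0.220 with luteolin (SD, n = 3), and against Adgre1, the F4/80 antigen, 22.7 ± 7.81 and 47.0 ± 11.2, without overlap. The part of macrophage content in the change of C1q was not tested.

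Among the collectins, Colec12 (gene ID 140792), a scavenger receptor with a collectin head that is found on vessel and stromal cells, fell. It stood at 33.1, 58.8 and 25.0 CPM with vehicle and at 13.2, 12.3 and 6.88 CPM with luteolin, without overlap, a fitted log2 change of -1.85 (SE 0.362, edgeR adjusted p = 0.00385). Its estimated counts had decimals in 6 libraries, which means that RSEM shared reads between genes. Colec11, a soluble collectin of the lectin pathway, had 13, 26 and 10 counts against 7, 3 and 4. It did not pass the filter. Fitted with no filter its log2 fold change was -1.64 (edgeR adjusted p = 0.0359).

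The proteases that act next went down to differing degrees. Masp1 (gene ID 17174), a protease of the lectin pathway, stood at 37.4, 51.6 and 25.4 CPM with vehicle and at 7.48, 8.45 and 3.22 CPM with luteolin, a fitted log2 change of -2.58 (SE 0.375, edgeR adjusted p = 0.00105). C2 (gene ID 12263), which supplies the protease of the classical C3 convertase, stood at 8.41, 10.8 and 6.91 against 2.84, 2.86 and 1.99 CPM, a fitted log2 change of -1.76 (SE 0.237, edgeR adjusted p = 0.000751). In both genes every luteolin library was below every vehicle library. Masp2, the other lectin pathway protease, had 1.12 estimated counts over the vehicle group and 1 over the luteolin group and was not tested.

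C1ra (gene ID 50909), which cleaves C1s within the C1 complex, stood at 64.4, 159 and 43.3 CPM with vehicle and at 34.0, 29.4 and 17.8 CPM with luteolin. The groups did not overlap, yet vehicle 2 was far above the other vehicle libraries. The log2 fold change was -1.72 (SE 0.487, edgeR adjusted p = 0.0186). Without vehicle 2 it was -0.99, and the call ended without luteolin 2 (edgeR adjusted p = 0.0504) or luteolin 3 (0.0622), with a range of 0.00246 to 0.0622 over all alternatives. C1s had no row under that symbol. C1s1, which the RefSeq table lists as its present name and which was named after its values were seen, stood at 136, 281 and 91.2 against 72.9, 72.6 and 35.8 CPM (log2 fold change -1.49, edgeR adjusted p = 0.0221, 0.0637 without luteolin 3). C1rl, a C1r-like protease, did not pass: it stood at 3.04, 7.32 and 2.205 CPM with vehicle and at 4.77, 3.57 and 2.70 CPM with luteolin (log2 fold change -0.19, SE 0.458, edgeR adjusted p = 0.747), and its sign turned without vehicle 2 (0.49).

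Serping1 (gene ID 12258), which encodes the C1 inhibitor that removes C1r and C1s from the complex, followed the same libraries. It stood at 145, 333 and 101 CPM with vehicle and at 109, 98.9 and 56.4 CPM with luteolin. The groups overlapped and the change did not pass (log2 fold change -1.13, SE 0.445, edgeR adjusted p = 0.0606). It did pass without vehicle 3 (-1.45, edgeR adjusted p = 0.0179), with upper quartile factors (0.0488), with library sizes only (0.0444) and with the replicate number as a block (0.0166), and without vehicle 2 it was -0.48 (0.159).

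These genes were then set against Dcn, the decorin gene of stromal keratocytes, a choice made after their values were seen. Per length, C1ra was at 0.0307, 0.0302 and 0.0315 of Dcn in vehicle 1, 2 and 3 and at 0.0149, 0.0137 and 0.0167 in luteolin 1, 2 and 3. In this ratio vehicle 2 thus no longer stood apart. Serping1 was at 0.112, 0.103 and 0.120 of Dcn with vehicle and at 0.0774, 0.0746 and 0.0858 with luteolin, and C1s1 at 0.0607, 0.0499 and 0.0623 against 0.0299, 0.0317 and 0.0315. In all 3 genes the ratios of both groups did not overlap. C1rl went the other way, from 0.00134 ± 0.000100 to 0.00191 ± 0.000404 of Dcn (SD, n = 3). The result depends on the stromal gene. Against Lum, the lumican gene, C1ra and C1s1 still did not overlap between groups but Serping1 did (0.262 to 0.304 and 0.255 to 0.331). Against Col1a2, a collagen gene, all 3 overlapped, and vehicle 2 stood apart again. There C1ra was at 0.0929, 0.168 and 0.0892 of Col1a2 in vehicle 1, 2 and 3, and Serping1 at 0.339, 0.572 and 0.340.

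**Figure D2:**
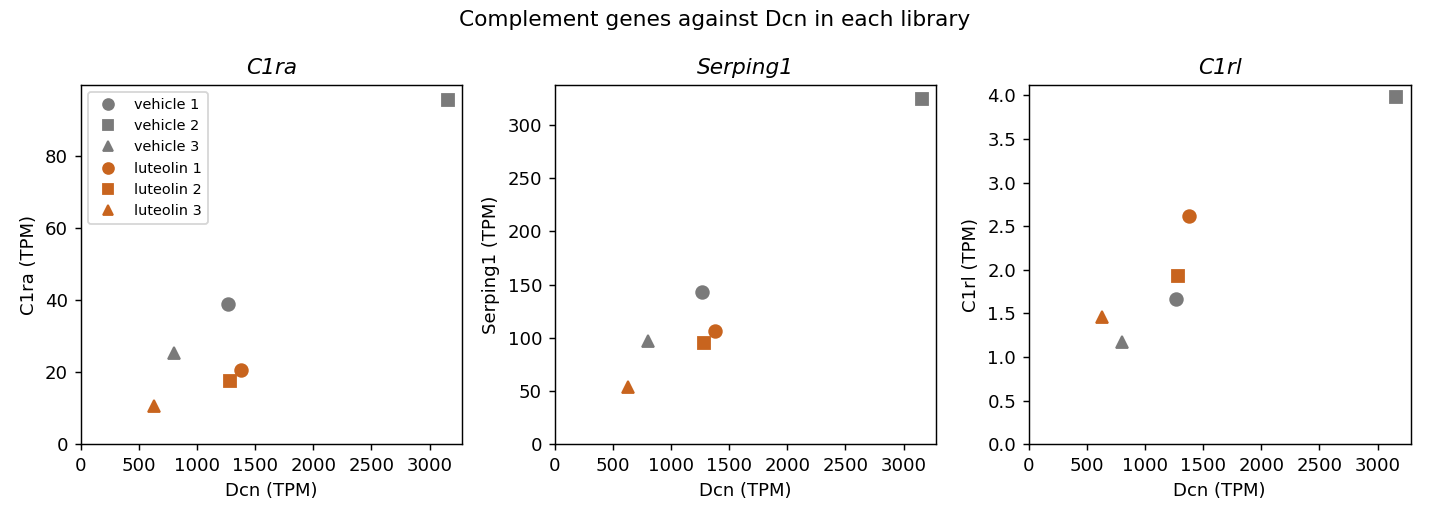
The TPM of C1ra, Serping1 and C1rl (vertical axes) is plotted against that of Dcn (horizontal axes), with 1 point for each library, grey for vehicle and orange for luteolin. Vehicle 2 is at the upper right in each panel, and at a like level of Dcn vehicle 1 lies above luteolin 1 and 2 for C1ra and Serping1 and below them for C1rl.

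With the mean log2 CPM of the 10 keratocyte markers as a covariate, an alternative added after the data were seen, C1ra had a fitted log2 change of -0.60 (edgeR adjusted p = 0.00246), C1s1 of -0.52 (0.00184) and Serping1 of -0.11 (0.300). C1rl was then 0.81 higher on the log2 scale and passed (edgeR adjusted p = 0.0334). Others also moved by over 1.5 times: Colec12 to -1.12, C1qa to -2.31, Masp1 to -1.96 and Hc to -3.54, all still passing, while C7 stood at -1.80 and no longer passed (edgeR adjusted p = 0.0508). The covariate itself was 7.06 to 8.61 with vehicle and 6.45 to 7.25 with luteolin, and its part in these changes was not tested.

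C3 (gene ID 12266), on which all pathways converge, stood at 20.6, 32.8 and 28.0 CPM with vehicle and at 9.09, 7.02 and 10.0 CPM with luteolin, a fitted log2 change of -1.64 (SE 0.203, edgeR adjusted p = 0.000523). C4b (gene ID 12268), which forms the classical and lectin convertase with C2, stood at 24.1, 26.5 and 14.9 against 5.93, 6.69 and 6.37 CPM, a fitted log2 change of -1.78 (SE 0.220, edgeR adjusted p = 0.000517). Neither gene overlapped between groups. C4a, a near-identical copy of C4b, had no row, so reads of either copy may be held in the C4b value.

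Cfb (gene ID 14962), factor B, the protease of the alternative convertase and a neighbour of C2, stood at 14.95, 24.1 and 16.3 CPM with vehicle and at 1.42, 1.23 and 1.03 CPM with luteolin. Cfp (gene ID 18636), properdin, which stabilises that convertase and is made by leukocytes, stood at 15.1, 18.6 and 16.7 against 1.93, 2.34 and 1.54 CPM. Both were close to each other within each group and far apart between groups, at log2 fold changes of -3.90 (SE 0.252, edgeR adjusted p = 6.02e-05) and -3.11 (SE 0.184, edgeR adjusted p = 4.80e-05). On log2(FPKM + 1) Cfb was at -2.56. Per length, Cfb was at 0.869 ± 0.104 of C3 with vehicle and at 0.197 ± 0.0355 with luteolin, and Cfp at 1.49 ± 0.183 and 0.580 ± 0.161 (SD, n = 3), with no overlap in either ratio. Cfd, factor D, the protease that activates factor B, had 1 count over each group and was not tested.

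The window before the start of C3 is also shown, on the minus strand at chr17:57228137-57228386 of GRCm38.p6 from the RefSeq table. No window of Cfb or Cfp is shown, so these letters do not bear on the difference between those genes and C3. Capitals mark the matches to the same NF-kappaB form and the C/EBP form TTGCNNAA.
C3: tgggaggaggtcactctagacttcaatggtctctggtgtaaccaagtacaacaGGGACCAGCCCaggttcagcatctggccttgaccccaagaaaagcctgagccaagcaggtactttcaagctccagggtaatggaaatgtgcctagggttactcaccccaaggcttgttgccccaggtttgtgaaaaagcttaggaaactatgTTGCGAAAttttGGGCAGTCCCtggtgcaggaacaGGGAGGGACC
The C/EBP match begins 45 bases before the start, and the NF-kappaB matches begin at 197 (read on both strands with a shift of 1 base), 33 and 10 bases before it. C3 and C1rl were the 2 listed genes with a C/EBP match. The matches describe the letters only, since no binding was measured.

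Genes of the terminal pathway, which builds the membrane attack complex, were near the limit of these libraries. Hc (gene ID 15139), the mouse name of C5, had 78, 108 and 46 counts with vehicle and 2, 8 and 1 with luteolin, or 4.54 ± 1.79 against 0.238 ± 0.247 CPM (SD, n = 3). C7 (gene ID 109828), which joins the complex after C6, had 45, 58 and 19 counts against 7, 3 and 12. In both genes the groups did not overlap, and the log2 fold changes were -4.22 (SE 0.607, edgeR adjusted p = 0.00101; -5.46 without luteolin 2) and -2.32 (SE 0.564, edgeR adjusted p = 0.01001). On log2(FPKM + 1), which compresses low values, they were -0.87 and -0.69. C8g, which encodes the gamma chain of C8, had 7, 14 and 9 counts with vehicle and 8, 13 and 14 with luteolin, overlapped and did not pass (log2 fold change 0.35, SE 0.404, edgeR adjusted p = 0.477). C6 had 1 count over the vehicle group and 2 over the luteolin group and was not tested.

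The 3 tested receptors of complement fragments and C1q fell. C3ar1 (gene ID 12267), the receptor of C3a, stood at 19.6, 30.3 and 19.3 CPM with vehicle and at 0.903, 2.40 and 0.708 CPM with luteolin. C5ar1 (gene ID 12273), the receptor of C5a on neutrophils and macrophages, stood at 6.07, 10.0 and 8.34 against 0.387, 1.04 and 0.257 CPM. In both genes luteolin 2 was the highest luteolin library and still below every vehicle library. The log2 fold changes were -4.10 (SE 0.410, edgeR adjusted p = 0.000229) and -3.84 (SE 0.445, edgeR adjusted p = 0.000410), or -4.84 and -4.64 without luteolin 2. On log2(FPKM + 1), which compresses low values, they were -2.40 and -1.96, and C1qb was at -3.12. In the edgeR fit C1qb was at -3.18, so the order of these genes depends on the scale. With vehicle, C3ar1 and C5ar1 averaged 8.45 and 5.41 TPM and C1qb averaged 95.5 TPM.

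Cd93 (gene ID 17064), a surface protein of endothelial and myeloid cells once described as a C1q receptor, stood at 31.0, 44.7 and 31.7 CPM with vehicle and at 1.999, 2.73 and 2.77 CPM with luteolin, without overlap. Its log2 fold change was -3.84 (SE 0.206, edgeR adjusted p = 4.15e-05), or -2.31 on log2(FPKM + 1). Vsig4, a C3b receptor of resident macrophages, had 9 counts over the vehicle group and 0 over the luteolin group, which allows up to 3 counts (0.0646 CPM), and was not tested. Markers of the cells that carry these receptors moved in the same libraries. All 5 tested neutrophil markers of 10 listed fell, each through the filter by the vehicle group alone, with summed levels of 148 to 337 TPM against 3.96 to 14.8 TPM. Csf3r fell by 5.35 and Cxcr2 by 5.01 on the log2 scale. S100a8, Mmp8 and Retnlg had 375, 79 and 20 counts over the vehicle group and 0 over the luteolin group. Ly6g and Ngp were at 0 with luteolin as well, but with 3 and 1 counts over the vehicle group they were at or under the floor of 3 counts in both groups. Of 12 vessel markers 11 fell (95.1 to 161 TPM against 19.2 to 24.8 TPM), none at 0, Cdh5 by 3.18 and Tie1 by 2.32 on the log2 scale. Of the 12, 1 passed the filter through the vehicle group alone. The part of neutrophils and vessels in the change of the receptors was not tested.

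**Figure D3:**
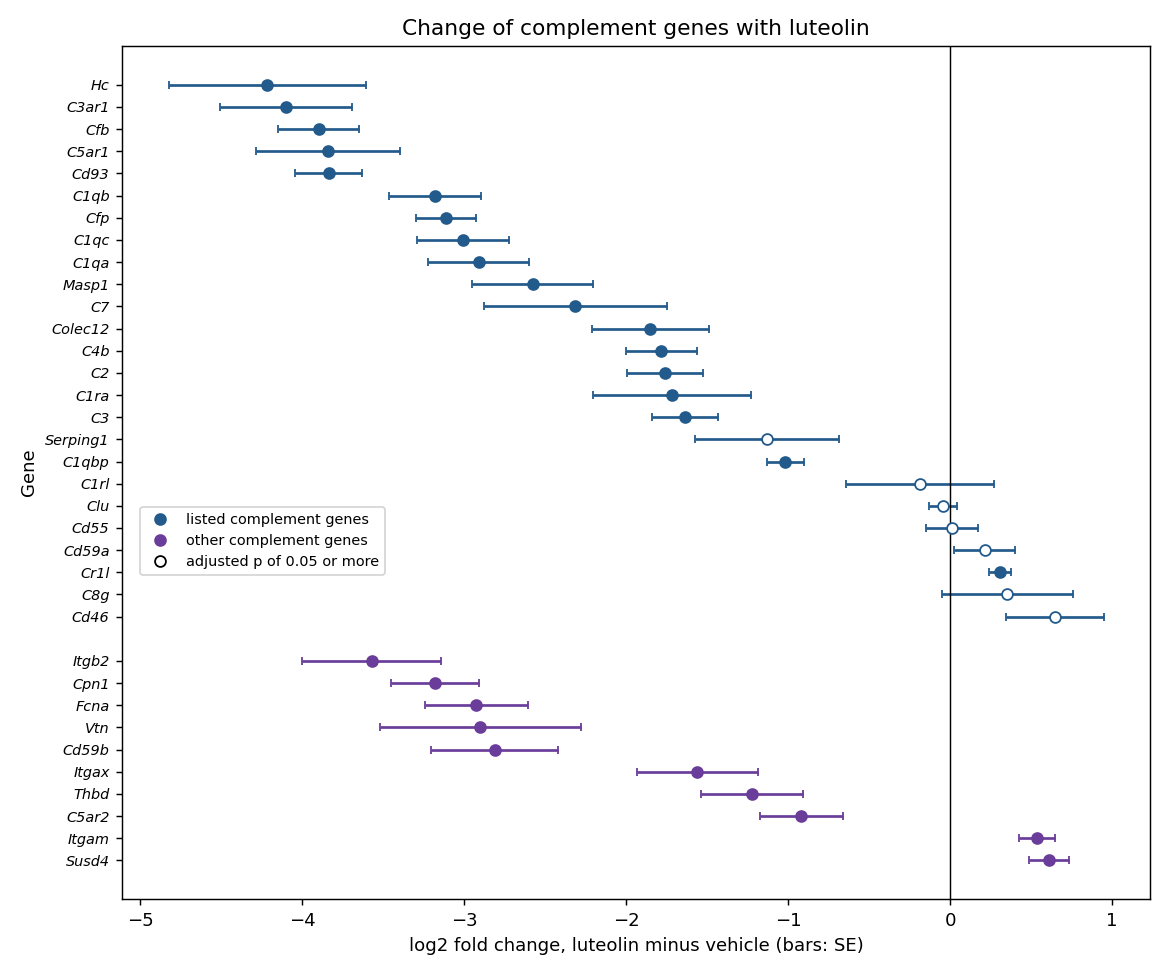
The log2 fold change, luteolin minus vehicle, of each tested gene is shown with its SE as a bar, blue for the 25 listed complement genes and purple for 10 of the 11 other tested complement genes, with open points for genes that did not pass. The receptors, Hc and Cfb lie furthest left between -4.22 and -3.84, and the 4 listed membrane regulators lie at or right of 0.01, while Cd59b among the other genes lies at -2.81.

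None of the 4 listed regulators on host membranes passed as lower, and 1 rose (background 30.4% and 28.5%). With 4 genes these counts cannot be set apart from the background. Cd59b, a membrane regulator outside the list, fell by 2.81 on the log2 scale. Cr1l (gene ID 12946), known as Crry, the widely expressed mouse regulator that helps factor I inactivate C3b and C4b, stood at 60.4, 70.4 and 65.2 CPM with vehicle and at 81.3, 81.6 and 79.5 CPM with luteolin. Every luteolin library was above every vehicle library, and the rise was small, at a fitted log2 change of 0.31 (SE 0.0682, edgeR adjusted p = 0.00674). Over all alternatives it lay between 0.18 and 0.37 and passed in each, with 0.19 for library sizes only, where the median of all genes was -0.13. Its window is shown because it was the listed gene that rose. It is the minus strand at chr1:195131571-195131820 of GRCm38.p6, from the RefSeq table, with the match to the NF-kappaB form in capitals.
Cr1l: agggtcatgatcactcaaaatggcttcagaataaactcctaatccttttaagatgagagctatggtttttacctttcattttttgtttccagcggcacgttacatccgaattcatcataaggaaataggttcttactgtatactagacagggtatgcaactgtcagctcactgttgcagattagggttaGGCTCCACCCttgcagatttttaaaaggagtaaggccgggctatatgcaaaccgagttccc
The match begins 61 bases before the start, and none of the other 4 motifs was found in these letters.

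Cd46 (gene ID 17221), a cofactor of factor I that in the mouse is known mainly from the testis, was low and higher in each luteolin library, at 0.818, 0.995 and 0.655 CPM against 1.03, 1.36 and 1.48 CPM. The change did not pass (log2 fold change 0.65, SE 0.303, edgeR adjusted p = 0.103). Its annotated span overlaps that of Cr1l in RefSeq, and the estimated counts of both genes were whole in every library, so none was divided between genes. Cd55 (gene ID 13136), which takes convertases apart, stood at 12.6, 17.7 and 13.0 against 15.5, 12.7 and 15.5 CPM (log2 fold change 0.01, SE 0.161, edgeR adjusted p = 0.953). Cd59a (gene ID 12509), which blocks the membrane attack complex, stood at 8.35, 8.31 and 6.08 against 10.3, 8.51 and 7.53 CPM (log2 fold change 0.21, SE 0.188, edgeR adjusted p = 0.359). For Cd55 and Cd59a the groups overlapped, and the counts of Cd59a had decimals in 6 libraries.

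Clu (gene ID 12759), clusterin, a secreted chaperone that binds the terminal complex, was the most abundant listed gene per length in both groups, at 296 TPM on average with vehicle and 286 TPM with luteolin. It stood at 286, 328 and 293 CPM with vehicle and at 300.0, 313 and 265 CPM with luteolin, overlapped and did not pass (log2 fold change -0.05, SE 0.0854, edgeR adjusted p = 0.669). Cfi, factor I, the protease that Crry and CD46 assist, had 1 count over the vehicle group and 0 over the luteolin group and was not tested. C1qbp (gene ID 12261), named for binding C1q but known as a protein of the mitochondrial matrix, fell from 101, 74.6 and 94.6 CPM to 42.6, 45.3 and 45.4 CPM, a fitted log2 change of -1.02 (SE 0.112, edgeR adjusted p = 0.000334). Here vehicle 2, highest for the C1q chains, was the lowest vehicle library.

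Summed per length by role, the balance of the listed genes differed between groups. Recognition genes were at 170 to 345 TPM with vehicle and 25.3 to 40.6 TPM with luteolin, central and alternative pathway genes at 43.2 to 58.3 and 8.18 to 8.67 TPM, and receptors at 19.0 to 28.6 and 1.07 to 2.21 TPM. Membrane regulators were at 82.5 to 95.4 TPM with vehicle and 103 to 109 TPM with luteolin. Cr1l made up most of that sum, at 70.7 TPM on average with vehicle and 87.4 TPM with luteolin, and Cd55, Cd59a and Cd46, which did not pass, were at 7.57, 7.73 and 0.790 against 8.18, 8.92 and 1.24 TPM. Fluid-phase regulators, the largest sum in both groups, overlapped at 378 to 646 and 311 to 403 TPM. The 4 membrane regulators together were at 8.24, 6.23 and 6.45 times the TPM of C3 with vehicle. With luteolin they were at 27.9, 30.6 and 26.4 times, while C3 itself went from 12.7 to 3.75 TPM on average. Cr1l went from the sixth to the second most abundant listed gene by TPM and C1qb from the fourth to the sixth.

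**Figure D4:**
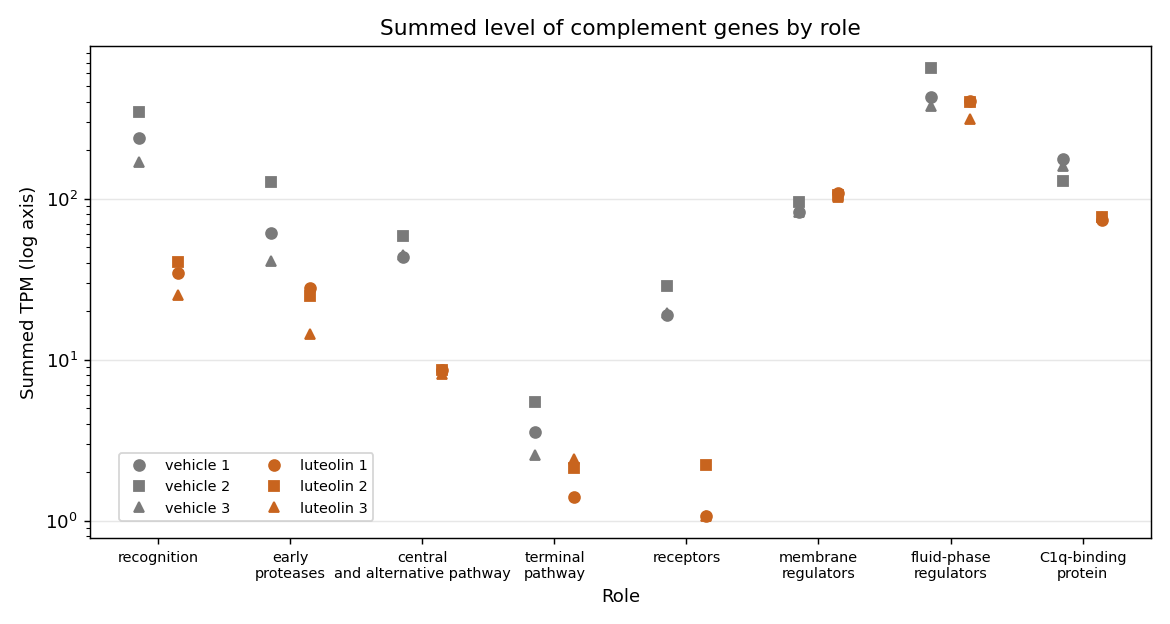
Each point is the summed TPM (vertical log axis) of the listed genes of 1 role in 1 library, grey for vehicle and orange for luteolin. Recognition, early protease, central and alternative pathway, terminal and receptor sums are lower in every luteolin library, the membrane regulator sum, mostly Cr1l, is higher, and fluid-phase regulators overlap.

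Other complement genes were taken from a list of 31, of which 23 had a row and 11 were tested, of which 9 fell and 2 rose (background 30.4% and 28.5%), and Cd59b, Fcna, Vtn and Itgb2 passed the filter through the vehicle group alone. Fcna, a ficolin of the lectin pathway, fell by 2.93, Cpn1, the carboxypeptidase that inactivates C3a and C5a, by 3.18, Vtn, vitronectin, by 2.90, Thbd, thrombomodulin, by 1.22 and C5ar2, the second C5a receptor, by 0.92 on the log2 scale. C5ar2 no longer passed without luteolin 2 (edgeR adjusted p = 0.0510) or luteolin 3 (0.0612). Cd59b, a close copy of Cd59a with decimals in 6 libraries, fell by 2.81. Vtn rests on 17, 29 and 14 counts with vehicle and 1, 1 and 5 with luteolin, and its log2 fold change was -4.03 without luteolin 3. On log2(FPKM + 1) Vtn was at -0.75, Cd59b at -1.01, Fcna at -1.80 and Cpn1 at -2.19.

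The integrin chains of the leukocyte complement receptors moved in both directions. Itgb2, their shared beta chain, fell from 11.04, 21.0 and 11.3 CPM to 0.516, 1.49 and 1.61 CPM (log2 fold change -3.57, edgeR adjusted p = 0.000473), and Itgax, the alpha chain of the CR4 receptor, fell by 1.56 on the log2 scale. On log2(FPKM + 1) they were at -2.20 and -0.56. Itgam, the alpha chain of the CR3 receptor, rose from 126, 136 and 162 CPM to 182, 218 and 213 CPM (log2 fold change 0.54, SE 0.111, edgeR adjusted p = 0.00501). Per length it was at 47.1 TPM with vehicle and 68.6 TPM with luteolin, above Itgb2, with which it pairs, at 8.34 and 0.727 TPM. Whether the Itgam value holds reads of another transcript was not tested, so it is not shown to be a level of the receptor's chain in leukocytes. Susd4, a membrane protein with complement control repeats, also rose, from 30.6, 38.6 and 43.0 CPM to 60.5, 56.0 and 54.8 CPM (log2 fold change 0.61, edgeR adjusted p = 0.00424). C8b, C9, Mbl1, Mbl2, Fcnb, Cpb2 and Apcs were among those with no row, and liver and plasma markers summed to 0.41 to 9.49 TPM over all libraries.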

How the data were processed

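RNA of whole corneas was sequenced in 3 vehicle and 3 luteolin libraries made with an Illumina TruSeq kit, per the labels' protocols. Bowtie2 2.2.5, RSEM 1.2.12 and mouse build mm9 are listed in the submitters' processing notes; the role of each, the annotation and the strand setting: not given in the sources used here. The authors deposited, per the file headers, estimated counts, normalized counts (a signal, not used), FPKM and TPM, the latter 2 scaled by gene length, for 17794 genes. Group averages were not used.

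Estimated counts, not whole (beyond 0.001) in 10.3% to 10.8% of values, were rounded, then tested in R 4.3.3 (edgeR 4.0.16): filterByExpr (minimum count 10, minimum total 15) kept 13838 genes, TMM factors, quasi-likelihood test, no replicate block, Benjamini-Hochberg over all tested genes, threshold 0.05. CPM uses the TMM factors, the deposited TPM serves comparisons between genes, and log2 fold changes are given as luteolin minus vehicle. The SE is the change over the square root of F. Libraries of 1 group differed by more than counting noise (chi-square over df 6.30 to 30.3). The code was tested on simulated data.

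The genes and lists were chosen with earlier results of these data known. Every listed gene is named, every tested gene of the other complement list that passed except 1 that is not reported here, and from each marker list described the 2 tested genes with the smallest p; neutrophil genes at 0, Csf1r, Lyz2, Adgre1, Dcn, Lum, Col1a2 and C1s1 were named after their values were seen. Alternatives were DESeq2 1.42.0, other scaling, other filters, a robust fit, a replicate block, limma-trend (limma 3.58.1) on log2(FPKM + 1) or log2(FPKM + 0.1), leaving out each library, and the keratocyte covariate.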

Additional observations from a re-analysis of the deposited data

How the results depend on the processing

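For the 25 tested complement genes under 17 alternatives, 406 of 424 values kept their direction and side of the threshold. With the direction kept, 3 lost the call (2 of C1ra, 1 of C7) and 4 gained it (all Serping1). The other 11 turned sign, and of these only C1rl with the keratocyte covariate passed. The number of lower genes was 17 and ranged from 16 to 19 when 1 library was left out, from 17 to 18 under the other planned settings and 16 with the keratocyte covariate, and that of higher genes was 1 except with the keratocyte covariate, which gave 2 (Cr1l and C1rl). The sign of Cd55 (0.01) turned to -0.084 with upper quartile factors and -0.10 with library sizes only, with a range of -0.082 to 0.19 without 1 library. That of Clu (-0.05) turned to 0.076 with the keratocyte covariate and lay between -0.11 and 0.019 without 1 library, and that of C1rl (-0.19) to 0.81 with the covariate and between -0.50 and 0.49 without 1 library; the cause was not tested. Deviations of same-numbered libraries correlated at -0.15, 0.027 and 0.012, and those of the other pairs at -0.14 to 0.18. No pairing by replicate number was seen, but with 3 libraries in each group this check cannot exclude it. With the replicate block 4144 of all genes were lower and 3790 higher, against 4208 and 3949, with 18 lower complement genes and 1 higher. Depth limits Masp2, Cfd, C6, Vsig4 and Cfi, which had at most 9 counts over a group, and makes the folds of Hc and C7 imprecise. Floors cover counting error only.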
